A study of Homo sapiens with 4 samples.

Results

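The loops described here are the chromatin contacts that anchor within an 800 kb window of chromosome 7 holding the caveolin genes CAV1 and CAV2 and the receptor gene MET. The window runs from 50.6 kb before the start of TES (chr7:115850560, GRCh37) to 6.71 kb past the start of ST7 (chr7:116593292). A loop was taken when at least 1 of its anchors overlapped it, and a contact domain when any of it did. The 4 loop lists held 101 such loops of 77275 in all, and joining the lists left 43 loops of 33552. The 4 domain lists held 9 such domains of 7418. Hi-C was performed on wild-type (WT) MDA-MB-231 cells, a human triple negative breast cancer line, after 48 h with DMSO (vehicle) or 75 nM THZ1, a covalent inhibitor of the transcription kinase CDK7 that also inhibits related kinases. Each condition had 2 libraries, called Vehicle 1, Vehicle 2, THZ1 1 and THZ1 2. The series describes them as technical replicates, so every p-value here measures the spread between these libraries only, and 1 line at 1 dose and time stands for each condition. The lists held 20768 and 24219 loops with vehicle and 17222 and 15066 with THZ1, and contacts summed over the listed loops ranged from 551436 to 762701 per library.

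In Hi-C, a loop is a pair of short genomic intervals, the anchors, that contact each other more often than the surrounding sequence does. Many loops form where cohesin extrudes chromatin until it meets CTCF bound to its motif, and others join gene starts to one another or to enhancers. Caveolin-1, encoded by CAV1, is the main coat protein of caveolae, the flask-shaped pits of the plasma membrane, and caveolin-2, encoded by CAV2, assembles with it. MET is the receptor tyrosine kinase for hepatocyte growth factor and drives cell motility and invasion. The neighbors are TES, which encodes the focal adhesion protein testin, COMETT, a long non-coding RNA gene on the opposite strand upstream of MET, CAPZA2, which encodes a subunit of the actin capping protein, and ST7. All the protein-coding genes of the window lie on the plus strand.

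The starts of CAV1 (chr7:116165048) and MET (chr7:116312250) were the gene starts of the window with the most loops, so the 250 bases upstream of each are shown, read from the GRCh37 genome on the plus strand. Capitals mark GGGCGG, the core of the GC box bound by SP1 family factors, on either strand. The CAV1 stretch is chr7:116164798-116165047 and the MET stretch is chr7:116312000-116312249.
CAV1 upstream: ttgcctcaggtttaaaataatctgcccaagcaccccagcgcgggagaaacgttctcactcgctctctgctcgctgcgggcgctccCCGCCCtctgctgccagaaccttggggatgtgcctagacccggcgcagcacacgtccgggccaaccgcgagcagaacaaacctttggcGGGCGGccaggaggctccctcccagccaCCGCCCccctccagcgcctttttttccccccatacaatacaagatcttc
MET upstream: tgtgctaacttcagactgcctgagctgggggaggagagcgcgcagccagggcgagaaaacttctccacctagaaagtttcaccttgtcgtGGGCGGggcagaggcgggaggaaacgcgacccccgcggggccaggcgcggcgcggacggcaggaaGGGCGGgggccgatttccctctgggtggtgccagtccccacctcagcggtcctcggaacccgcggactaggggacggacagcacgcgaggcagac
GGGCGG was present 3 times upstream of CAV1 and 2 times upstream of MET. Of 19881 protein-coding genes, 59.1% held it in the 250 bases upstream of the start of the canonical transcript. That start is the gene start for MET and lies at chr7:116165090 for CAV1. TGACTCA, the AP-1 motif, was in neither stretch shown and in 3.05% of those 19881 upstream stretches. The 12-base core of the CTCF motif had 2 exact matches in the whole window, shown in capitals with 10 bases on each side, each written 5′ to 3′ on its own strand. The first lies on the minus strand at chr7:116229238-116229269, in an intron of COMETT, and the second on the plus strand at chr7:116570650-116570681, between CAPZA2 and ST7.
COMETT intron match: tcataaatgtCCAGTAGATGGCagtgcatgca
CAPZA2 to ST7 match: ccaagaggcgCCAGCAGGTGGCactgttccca
Both matches lay within anchors. The COMETT match was in an anchor of 2, 2, 1 and 0 loops of Vehicle 1, Vehicle 2, THZ1 1 and THZ1 2, and the other match in an anchor of 1, 1, 1 and 0 loops. The 5 kb interval next to the COMETT match (chr7:116230001-116235000) held no match and anchored 3, 3, 3 and 4 loops. Vehicle 1 and THZ1 1 placed the loop from the end of TES to COMETT in the interval with the match. Vehicle 2 and THZ1 2 placed that loop in the interval next to it. A core match was held by 2 of the 46 distinct 5 kb anchors (4.35%), against 9.66% of the 29472 distinct 5 kb anchors of the genome. Among 10 kb anchors it was 1 of 17 (5.88%) against 14.2%, and among 25 kb anchors 2 of 9 (22.2%) against 21.8%. These counts include anchors of window loops that lie right of the window. The anchors at the end of TES, the start of CAV1 and the start of MET held no exact match. That says only that these 12 letters, in the forms searched, are not in those anchors.

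With THZ1 the lists held fewer loops at this locus, and the difference was widest to the left of CAV1, a part singled out after its values were seen. Vehicle 1 and Vehicle 2 listed 33 and 31 loops, and THZ1 1 and THZ1 2 listed 18 and 19. The groups did not overlap, at 32 ± 1.41 against 18.5 ± 0.707 (SD, n = 2 libraries each), which is 1.73 times as many with vehicle (exact two-sided permutation test, p = 0.33, the smallest that 2 against 2 libraries can give). Over the genome the ratio was 1.39, and as a share of its library's loops the window held 0.159% and 0.128% with vehicle and 0.105% and 0.126% with THZ1. Both vehicle shares lay above both THZ1 shares, though those of Vehicle 2 and THZ1 2 were close. Whether the window differed from the genome was not tested. Counting loops with both anchors in the window gave 29 in each vehicle library against 17 in each THZ1 library. No loop reached the window from the left, and 9 had their second anchor to the right of it.

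**Figure D1:**
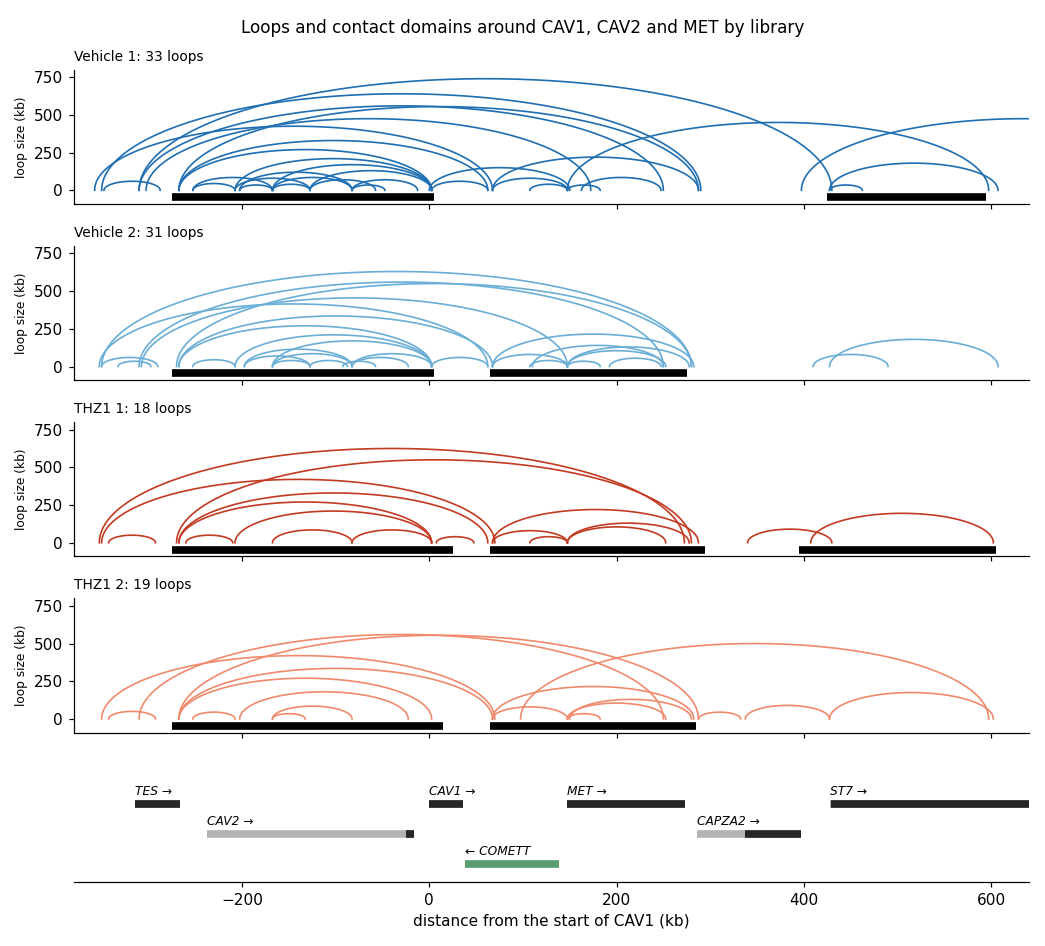
Loops (arcs) and contact domains (black bars) of each library, by distance from the start of CAV1 in kb. Arc height is loop size in kb, gray or dark bars below are protein-coding genes with the canonical transcript dark, green is COMETT, and 1 arc of Vehicle 1 runs past the right edge. The arcs left of CAV1 are denser in both vehicle libraries than in both THZ1 libraries.

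Loops of 90 kb or less, the size class that the study assigns to condensin subloops, amounted to 16 in each vehicle library and 8 in each THZ1 library. Their share was 48.5% and 51.6% of the vehicle loops (95% Wilson intervals 32.5% to 64.8% and 34.8% to 68.0%) and 44.4% and 42.1% of the THZ1 loops (24.6% to 66.3% and 23.1% to 63.7%). The number of small loops was lower by a factor of 2 while the share differed by 6.77 percentage points, within each library's counting interval (exact two-sided permutation test, p = 0.33). Genome-wide, the small loops made up 37.3% and 36.8% with vehicle and 26.2% and 25.5% with THZ1. These are shares of 20768 and 24219 loops with vehicle and of 17222 and 15066 with THZ1. At those numbers the small loops of the genome were also fewer with THZ1, by a factor near that of the window. The factor of 2 is thus not particular to this locus, and a difference from the genome was not tested. Loops of the window had median sizes of 120 and 85 kb with vehicle and 117.5 and 130 kb with THZ1. The 2 groups overlapped (exact two-sided permutation test, p = 0.667).

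Of the 43 joined loops, 11 were listed by all 4 libraries, 9 by 3 libraries and 4 by both vehicle libraries and neither THZ1 library. A further 1 was listed by both THZ1 libraries only, 15 by a single vehicle library and 3 by a single THZ1 library. The vehicle-only 4 made up 9.30% of the joined loops, against 9.67% of all joined loops of the genome, and the THZ1-only loop made up 2.33%, against 2.24%. Both shares were near the background of all loops. The loops seen in all 4 libraries had the highest observed over expected contacts, with a median of 5.37 and a range of 2.09 to 14.7. The loops of a single vehicle library had a median of 3.46 and reached 4.70 at most. Among the other classes the median did not rise with the number of libraries. It was 3.01 for loops of 3 libraries, 3.42 for both vehicle libraries only, 3.40 for both THZ1 libraries only and 3.15 for a single THZ1 library. Expected contacts are those HiCCUPS, the loop caller, took from the donut-shaped neighborhood of the loop, and anchor widths of 5, 10 or 25 kb differed between libraries for some joined loops.

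**Figure D2:**
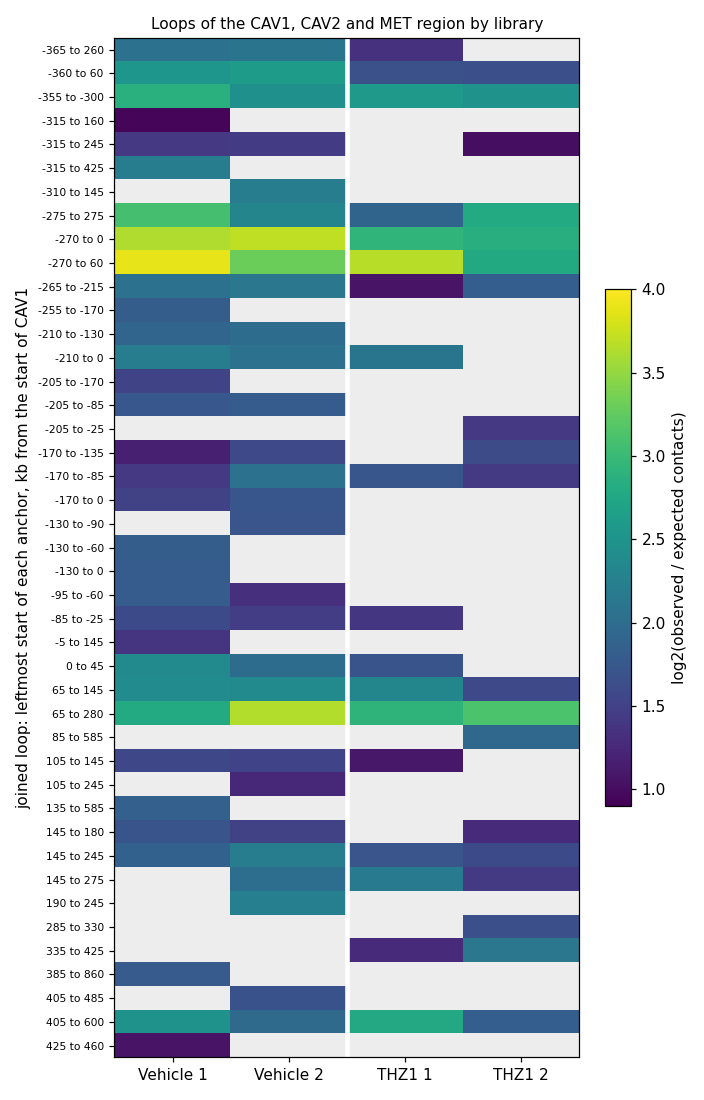
The 43 joined loops by library, named by the distance of both anchors from the start of CAV1 in kb. Color is log2 of observed over expected contacts and light gray marks a library that did not list the loop. The brightest rows are filled in all 4 columns, and the rows left of CAV1 (negative to 0) are emptier under THZ1.

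The start of CAV1 was an anchor of 6 and 5 vehicle loops and of 3 and 1 THZ1 loops, in 7 joined loops. In 4, 4, 3 and 1 of these loops CAV1 was the right-hand anchor, so most loops ran toward TES and the stretch between TES and CAV1. The strongest joined the end of TES (chr7:115895001-115900000) to the start of CAV1 (chr7:116165001-116170000) across 270 kb and was listed with the same anchors by all 4 libraries. It had 93 and 117 observed contacts with vehicle and 93 and 83 with THZ1. Expected contacts were 7.51 and 8.99 with vehicle and 12.2 and 11.4 with THZ1. Observed over expected was thus 12.4 and 13.0 in the vehicle libraries against 7.61 and 7.26, and the 2 groups did not overlap. Both THZ1 libraries lay below both vehicle libraries in 68.8% of the 2619 loops of the genome tested for strength. The observed contacts did overlap, and the expected contacts were higher in both THZ1 libraries.

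The other CAV1 loops were weaker and less regularly listed. The loop from chr7:115955001-115960000 to CAV1 had observed over expected contacts of 4.62 in Vehicle 1, 4.21 in Vehicle 2 and 4.29 in THZ1 1, and was not listed by THZ1 2. The loop from chr7:115995001-116000000 was listed by both vehicle libraries (2.85 and 3.32) and by neither THZ1 library. From chr7:116035001-116040000 only Vehicle 1 listed a loop to CAV1 (3.47). All 3 of these left-hand anchors lie in the long annotated body of CAV2. The loop from chr7:116080001-116085000 reached CAV1 in Vehicle 2 (2.77) and THZ1 1 (2.62), and in Vehicle 1 it ended short of CAV1. To the right, CAV1 contacted an intron of COMETT (chr7:116225001-116230000) in Vehicle 1 (5.18) and Vehicle 2 (3.99), and a THZ1 1 loop joined to it (3.26) had its anchors at chr7:116170001-116175000 and in COMETT. A direct contact of the CAV1 start with the MET start was listed once, by Vehicle 1, with 10 kb anchors, 23 observed contacts and an observed over expected of 2.58.

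CAV2 had the widest gap between conditions in loops over its annotated body among the 7 protein-coding genes. Its GENCODE gene spans chr7:115927434-116148595, far to the left of its canonical transcript at chr7:116139792-116148595. Over the gene body, Vehicle 1 and Vehicle 2 listed 13 and 11 loops and THZ1 1 and THZ1 2 listed 4 and 4. At the start of the canonical transcript no library listed a loop. Over the canonical transcript Vehicle 2 and THZ1 2 listed 1 loop each and the other libraries none. They were the Vehicle 2 loop of 60 kb from chr7:116080001-116085000 and the THZ1 2 loop of 180 kb from chr7:115960001-115965000, both ending at chr7:116140001-116145000. The loops counted at CAV2 were thus almost all in the stretch upstream of the canonical transcript, between TES and CAV1. At TES, CAV2, CAV1 and MET, 4 of the 7 genes, both vehicle libraries listed more loops over the body than both THZ1 libraries, as they did at 24.3% of the 14386 protein-coding genes with a loop.

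Within that stretch a few anchors recurred. The 5 kb interval chr7:115995001-116000000 anchored 5 and 3 vehicle loops and 1 and 2 THZ1 loops. At chr7:116035001-116040000 there were 4 and 3 vehicle loops and no THZ1 loop, and at chr7:116080001-116085000 there were 4 and 4 vehicle loops against 2 and 1. In the adjacent interval chr7:116030001-116035000, THZ1 2 listed 1 loop (observed over expected 3.08). It joined with a loop that both vehicle libraries anchored at chr7:116035001-116040000. The 4 joined loops listed by both vehicle libraries and neither THZ1 library all lay in this stretch. Besides the loop to CAV1, they joined chr7:115955001-115970000 with chr7:116035001-116040000 (3.77 and 4.00 in Vehicle 1 and Vehicle 2), chr7:115960001-115970000 with chr7:116080001-116085000 (3.35 and 3.49), and chr7:116070001-116085000 with chr7:116105001-116120000 (3.50 and 2.51). Their contacts were few, from 19 to 32 observed in a library. The loop that stayed in all 4 lists with the same anchors joined chr7:115995001-116000000 with chr7:116080001-116085000, with observed over expected contacts of 2.66, 4.18, 3.32 and 2.68 in Vehicle 1, Vehicle 2, THZ1 1 and THZ1 2, and there the conditions overlapped.

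The start of MET had fewer loops with THZ1 by a small margin. It was an anchor of 5 and 6 vehicle loops and of 4 and 4 THZ1 loops, in 8 joined loops, of which 2 were listed by all 4 libraries and 3 by 3 libraries. Over the MET gene body (chr7:116312250-116438431) the counts were 8 and 9 in the vehicle libraries against 5 and 5. The loop from an intron of COMETT (chr7:116230001-116235000) to the MET start (chr7:116310001-116315000), 80 kb apart, was listed with the same anchors by all 4 libraries. It had 35 and 42 observed contacts with vehicle and 48 and 27 with THZ1, and observed over expected contacts of 5.24 and 5.19 against 5.02 and 2.99. The 2 groups did not overlap, though THZ1 1 lay close to both vehicle libraries and only THZ1 2 lay well below. The same order was seen in 68.8% of the 2619 loops of the genome tested for strength.

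A second loop of all 4 lists ran from the MET start into the gene, over an exon at chr7:116410001-116420000, and had observed over expected contacts of 3.63, 4.65, 3.28 and 3.02. In Vehicle 1 its left anchor lay inside MET and not at the start. The loop from the MET start to chr7:116440001-116450000, just past the end of the gene, was listed by Vehicle 2 (4.04), THZ1 1 (4.53) and THZ1 2 (2.69). A 35 kb loop within MET, to chr7:116345001-116350000, was listed by Vehicle 1 (3.27), Vehicle 2 (2.84) and THZ1 2 (2.40). Upstream, a 40 kb loop to chr7:116270001-116275000 in COMETT was listed by Vehicle 1 (2.97), Vehicle 2 (2.86) and THZ1 1 (2.15). Each of these 3 loops was thus missing from 1 list. The remaining MET loops were each listed by 1 vehicle library: the contact with CAV1, a 455 kb loop to TES in Vehicle 2 (4.64) and a 450 kb loop with 25 kb anchors to ST7 in Vehicle 1 (3.61).

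**Figure D3:**
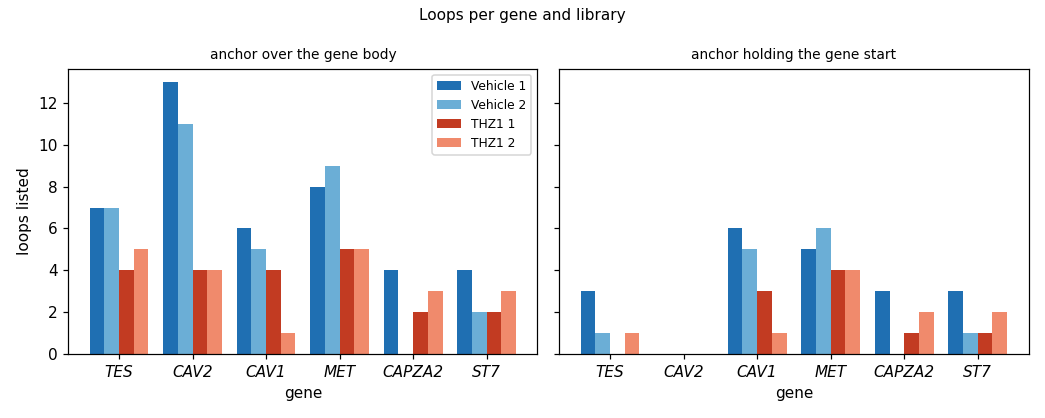
Loops per library with an anchor over the gene body (left) or an anchor holding the annotated gene start (right); the vertical axis is the number of loops. Bars for CAV2, CAV1 and MET bodies are higher in both vehicle libraries than in both THZ1 libraries, and no loop is anchored at the CAV2 start.

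The longer loops that frame these genes were among the strongest. From the end of TES, a loop of 330 to 335 kb reached COMETT, with observed over expected contacts of 14.7 and 9.86 in Vehicle 1 and Vehicle 2 and 12.7 and 6.87 in THZ1 1 and THZ1 2. From COMETT, a loop of 215 to 220 kb reached the far side of MET near the start of CAPZA2, with 6.92 and 12.5 against 7.52 and 8.69. In both loops the conditions overlapped, but these values mix anchors, since the libraries placed 1 anchor of each loop in 2 adjacent intervals. Vehicle 1 and THZ1 1 shared an interval, with 14.7 and 12.7 in the TES loop and 6.92 and 7.52 in the CAPZA2 loop. Vehicle 2 and THZ1 2 shared the other, with 9.86 and 6.87 and with 12.5 and 8.69. Each interval thus held 1 library per condition. The largest loop, 740 kb from the start of TES to the start of ST7, was listed by Vehicle 1 alone, with 17 observed contacts and an observed over expected of 4.61. The 1 loop listed by both THZ1 libraries and neither vehicle library joined the canonical start of CAPZA2 to the start of ST7 across 90 kb, with 2.44 in THZ1 1 (10 kb anchors) and 4.36 in THZ1 2 (5 kb anchors, chr7:116500001-116505000 and chr7:116590001-116595000). Of the neighbors, counting loops of the window, TES had 7 and 7 loops over its body with vehicle against 4 and 5. CAPZA2 had 4 and 0 against 2 and 3, and ST7 had 4 and 2 against 2 and 3, so at those 2 genes the conditions overlapped. The gene ENSG00000288635, which overlaps ST7, had 4 and 2 against 1 and 3.

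Loop strength was tested on the 2619 loops of the genome with the same anchors in all 4 lists and an expected value above 0, by edgeR's quasi-likelihood test with the log of the expected contacts as offset. This test called 27.5% of those loops weaker with THZ1 and 0.0382% stronger, at a Benjamini-Hochberg adjusted p of 0.05, with a median log2 change of -0.41. In 68.8% of the loops both THZ1 libraries lay below both vehicle libraries, as they did in 2 of the 3 window loops. The window held 3 of the tested loops, and 1 of them was weaker with THZ1. The TES to CAV1 loop fell by 0.77 on the log2 scale (SE 0.159, edgeR adjusted p = 0.00394). It ranked 287 of 2619 when loops were ordered from the largest fall. The COMETT to MET loop had a log2 change of -0.37 (SE 0.234, edgeR adjusted p = 0.239), and the loop within the CAV2 body one of -0.19 (SE 0.252, edgeR adjusted p = 0.576), which turned to 0.21 without the expected contacts and to 0.18 without Vehicle 2. Read against the genome median of -0.41, the last 2 lay above it and the TES to CAV1 loop below it.

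**Figure D4:**
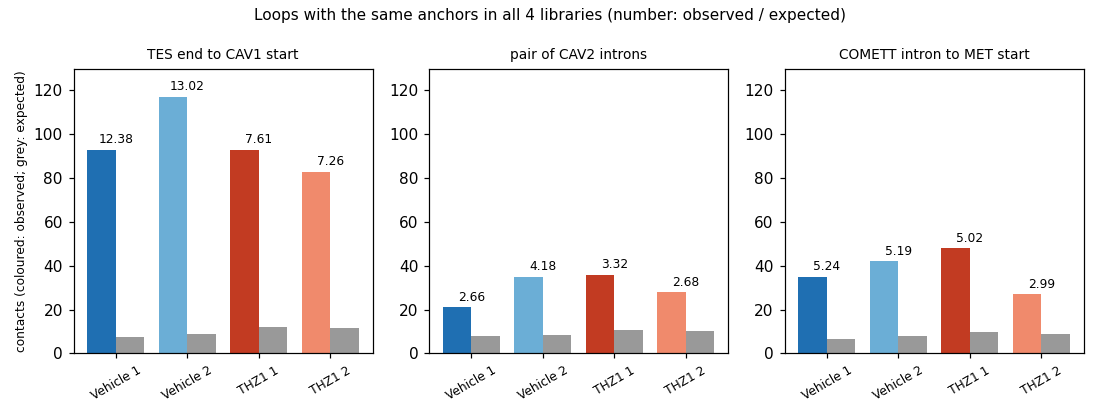
Observed (colored) and expected (gray) contacts per library at the 3 loops with the same anchors in all 4 lists, with observed over expected above each pair of bars. At the TES end to CAV1 start loop the ratio is 12.4 and 13.0 with vehicle and 7.61 and 7.26 with THZ1, while the observed contacts overlap.

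The fall of the TES to CAV1 loop depended on the expected contacts. Without them, on observed contacts scaled by TMM (a library scaling in edgeR), its log2 change was -0.24 (edgeR adjusted p = 0.350), and the median over all tested loops moved from -0.41 to -0.01. With DESeq2 and the same expected contacts the change was -0.77 (adjusted p = 0.0582). Leaving out Vehicle 2, THZ1 1 or THZ1 2 also ended the call (edgeR adjusted p = 0.0692, 0.0670 and 0.0997), with log2 changes of -0.73, -0.81 and -0.74 that were about as large as with all 4 libraries. These fits have 1 library in an arm, which is assumed to vary like the others, and called 0 loops in the whole genome. Leaving out Vehicle 1 kept the call (-0.81, edgeR adjusted p = 0.0468). Over the 3 loops, the median log2 of observed over expected was 2.39 and 2.37 with vehicle and 2.33 and 1.58 with THZ1 (exact two-sided permutation test, p = 0.33). The difference of -0.43 was -0.05 without THZ1 2, and it was -0.01 with all 4 libraries when observed contacts were divided by their sum over the tested loops in place of the expected contacts.

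The domain between TES and CAV1 was called in all 4 libraries. A contact domain, called by the Arrowhead algorithm on a 10 kb grid, is a stretch whose parts contact each other more than they contact the flanks, and the corner score rates how sharp it is. This one started at chr7:115890001 in every library and ended at 116170000 in both vehicle libraries, at 116190000 in THZ1 1 and at 116180000 in THZ1 2. It was 280, 280, 300 and 290 kb long, so its right boundary lay 10 to 20 kb further to the right with THZ1. In all 4 libraries this boundary lay past the start of CAV1. Its corner scores of 1.75, 1.70, 1.72 and 1.73 overlapped between conditions and stood in the top percentiles of each library, from 98.0 to 99.5. Within its widest extent the vehicle libraries listed 14 and 12 loops and the THZ1 libraries 5 each. Of 90 kb or less there were 9 and 8 against 3 and 3. This extent was chosen after its values were seen, so the counts are a description. Over the genome, loops of all sizes were 1.39 times as many with vehicle, and loops of 90 kb or less differed by more than that. Whether the extent differed from the genome was not tested.

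MET lay in a second domain, which began at chr7:116230001 in COMETT, the anchor of the COMETT to MET loop. It ended at 116440000 in Vehicle 2, 116460000 in THZ1 1 and 116450000 in THZ1 2, with corner scores of 1.32, 1.42 and 1.39, and Vehicle 1 did not list it. Within its extent the vehicle libraries listed 5 and 8 loops and the THZ1 libraries 5 each, so the groups overlapped. Another domain, over ST7, was listed by Vehicle 1 (chr7:116590001-116760000, corner score 0.963) and THZ1 1 (chr7:116560001-116770000, 1.02). The window thus held 2, 2, 3 and 2 domains, of 1198, 1398, 2477 and 2345 in the whole lists (exact two-sided permutation test, p = 1). The genome-wide number of domains was higher in both THZ1 libraries, whereas at this locus the same domain was called throughout.

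Other genes of both pathways, elsewhere in the genome, were counted the same way. Among 7 caveola genes, which encode coat proteins and their partners, 6 had a higher mean number of loops with vehicle and CAVIN1 had a higher one with THZ1 (3 and 2 against 3 and 3). Over all 14386 protein-coding genes with a loop, 62.7% had a higher mean with vehicle. In 3 of the 7 both vehicle libraries lay above both THZ1 libraries, against 24.3% of all these genes, and in the others, CAVIN3, CAVIN4 and EHD2 among them, the libraries overlapped or tied. In sum they had 27 and 32 vehicle loops and 20 and 15 THZ1 loops, while loops of the whole lists were 1.39 times as many with vehicle. Of 3 of their loops tested for strength, 1 was weaker with THZ1 and none stronger, beside the 27.5% called weaker over the genome. It was an 85 kb loop at CAVIN3, which encodes a caveola coat protein, from chr11:6255001-6260000 to chr11:6340001-6345000. Its observed over expected contacts were 8.82 and 6.25 with vehicle and 3.91 and 3.84 with THZ1 (log2 change -0.93, SE 0.216, edgeR adjusted p = 0.00624).

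Among 10 genes of the MET pathway (ligand, activating proteases and their inhibitors, adaptors and a related receptor), 7 had a higher mean number of loops with vehicle, near the 62.7% of all genes, and 3 had equal means: HGF, the ligand of MET, and the protease inhibitors SPINT1 and SPINT2. In 3 of the 10 both vehicle libraries lay above both THZ1 libraries, near the 24.3% of the 14386 protein-coding genes with a loop. In the others, ST14, GRB2 and SHC1 among them, the libraries overlapped or tied. In sum these genes had 25 and 27 vehicle loops against 20 and 13. Of 5 loops tested for strength, 1 was weaker with THZ1 and none stronger, again beside 27.5% over the genome. With so few genes and loops in either list, nothing particular to them is read from these counts. It was a 35 kb loop at SPINT1, from chr15:41150001-41155000 to chr15:41185001-41190000, with observed over expected contacts of 10.7 and 7.64 against 5.44 and 5.78 (log2 change -0.67, SE 0.232, edgeR adjusted p = 0.0369). The single loop tested at HGF had 9.85 and 9.04 with vehicle and 8.92 and 8.49 with THZ1 (log2 change -0.11, edgeR adjusted p = 0.769). Every gene of both lists had a loop in at least 1 library. In CAVIN2 and HGFAC, named here after their values were seen, all loops were in vehicle libraries: 1 and 1 for CAVIN2, and 2 and 1 for HGFAC.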

How the data were processed

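Arima-HiC libraries were processed by the authors with Juicer 1.6 (build hg19, submitters' processing notes), and the file headers name juicer_tools 1.19.02. Loops were called per library. In the deposited loop lists, observed contacts are raw counts and expected contacts are a signal on that scale. The deposited FDR values are q-values, none above 0.0997. The deposited domain score is Arrowhead's corner score. Read depth was not used here, since the lists carry contacts at loops and no total per library, and Wilson intervals cover counting error only. The authors' tables of unique loops, which hold comparisons, were not used.

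Loop size was the distance between anchor starts. Lists were joined where both anchor midpoints lay within 20 kb, and per library the row of lowest donut FDR was shown. Of 2624 loops with identical anchors in all 4 lists, 5 with an expected value of 0 were left out and the rest tested (edgeR 4.0.16, R 4.3.3). DESeq2 1.42.0 was an alternative. The edgeR fit and the joining were tested on simulated data. Library values were compared by exact permutation over 6 splits. Genes came from GENCODE 44 lifted to GRCh37, and sequences from that genome, in which no anchor ran past a chromosome end. Anchors of CAV1, CAV2 and MET starts, loops with identical anchors, loops of both libraries of 1 condition and the largest loop were named. The members, gene lists and tests were chosen with earlier results of these data known. Same-numbered libraries were not paired by any label. Python 3.11.15, pandas 2.3.3, numpy 2.4.6, scipy 1.17.1 and matplotlib 3.10.9 were used.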

Additional observations from a re-analysis of the deposited data

How the results depend on the processing

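Fewer window loops with THZ1 (log2 ratio -0.79) were found under every alternative run, from -0.87 with 5 kb anchors to -0.31 as a share of all loops, and from -0.83 to -0.74 without 1 library. The median size was 21.25 kb larger with THZ1, but the difference turned to -135 kb with 10 kb anchors and -42.5 kb with all 4 FDR values at or below 0.01, and 3.75 to 38.75 kb larger without 1 library. The share of small loops, -6.77 percentage points, turned to 8.33 with 10 kb anchors and to 2.54 at that FDR, and ranged from -8.34 to -5.21 without 1 library. The log2 ratio of domain numbers, 0.32, was -0.59 as a share of all domains and 0 to 0.58 without 1 library.

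The 1 strength call became 0 without the expected contacts and 0 with DESeq2, and 0 to 1 without 1 library. Genome-wide calls of weaker loops were 720, 604 with the bottom-left expected contacts, 109 (with 67 stronger) without any, 17 with DESeq2 and 707 with at least 20 contacts; they were 227 without Vehicle 1 and 0 without Vehicle 2, THZ1 1 or THZ1 2 (edgeR; 699, 824 and 746 loops at an unadjusted p under 0.05). With the replicate number as a block, 1 window loop was called (log2 change -0.77, edgeR adjusted p = 0.00041) and 769 genome-wide. Deviations of same-numbered libraries in observed over expected contacts correlated at 0.0175. These ratios are scaled by each library's own expected contacts, so the correlation cannot settle whether the libraries were paired. The loop within the CAV2 body turned to 0.21 without expected contacts, and ranged from -0.47 to 0.18 (without Vehicle 2) when 1 library was left out; the cause was not tested. The median strength difference, -0.43, ranged from -0.80 to -0.05 without 1 library and was -0.01 without expected contacts. Loops listed by both vehicle libraries only numbered 4, 6 with a joining distance of 10 kb, 2 with 50 kb, and 7 to 14 without 1 library, where fewer lists had to match or miss. Counting loops at the canonical starts, or within 5 kb of them, was added after seeing the data and turned no direction.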
